A study of Homo sapiens with 2 samples.

Results

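The genes described here encode the leukocyte integrins of the beta2 class and their ICAM ligands. They are the beta subunit ITGB2 (CD18), the alpha subunits ITGAL (CD11a), ITGAM (CD11b) and ITGAX (CD11c), and the ligands ICAM1, ICAM2 and ICAM3. These 7 genes were taken by symbol from the 32738 genes of the count matrix, and all 7 were found. An alpha chain reaches the cell surface only when paired with the beta2 chain, giving LFA-1 with ITGAL, Mac-1 with ITGAM and CR4 with ITGAX. These receptors hold leukocytes to other cells by binding ICAMs, and Mac-1 and CR4 also bind complement fragment iC3b. In blood development LFA-1 is used broadly by leukocytes, whereas Mac-1 and CR4 are best known from monocytes, macrophages and granulocytes.

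The cells came from the human induced pluripotent stem cell line IPS11, a single line. CD34-enriched cells from aggregates were kept for 5 days in medium for the endothelial to hematopoietic transition (EHT), on uncoated plates or on plates coated with VCAM1, with DLL4 or with both proteins. VCAM1 is an adhesion protein and DLL4 a notch ligand. Only nonadherent cells were harvested, wells of a condition were combined, and the 4 conditions were marked with hashtag antibodies 0252, 0253, 0254 and 0255 and captured together. No label ties a hashtag to its coating, so hashtags are given by number, and the experiment is 1 library without replicates. For this reason no p-value was computed, and every interval below covers counting error only.

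Of 10836 barcodes, 7550 had a call for 1 hashtag and at most 36000 UMIs, 6000 genes and 18% mitochondrial UMIs. A UMI (unique molecular identifier) marks 1 captured transcript. Hashtags held 1571 to 2136 of these cells and the cells 142110950 UMIs, with a median of 18318.5 per cell. Levels are UMIs of a gene per 1000000 UMIs of all cells in a gate (CPM), with an exact Poisson 95% interval. UMIs are read from transcript 3′ ends and so do not scale with gene length, but capture differs between genes, so a level of one gene against another is not a ratio of proteins.

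Cells were sorted in silico by marker genes that are not among the 7. The C1Q gate (C1QA, C1QB and C1QC together at least 5 UMIs per 10000) held 692 cells, the ELANE gate (at least 5) 80 cells and the EPX gate (at least 2) 359 cells. Of cells without these, platelet, globin or collagen genes, 729 had SPINK2 (at least 2 per 10000) and another 2265 had at least 1 UMI each of CD34 and GATA2. Gates of globin cells (214), platelet chemokine cells (23) and collagen-producing stromal cells (91) served for comparison, 105 cells in several gates were set apart, and 2992 cells stayed ungated. Median depth was 20248 UMIs per cell in the CD34/GATA2 gate, 19405 in the SPINK2 gate, 12709 in the C1Q gate, 11633.5 in the ELANE gate, 17277 in the EPX gate and 14530 in the stromal gate. Markers not used for gating were at least 2-fold above all other cells for 8 of 8 macrophage genes in the C1Q gate, 7 of 7 early neutrophil genes in the ELANE gate and 5 of 7 eosinophil genes in the EPX gate. The EPX gate was also at least 2-fold higher for 4 of 4 mast cell and basophil genes, summing to 203 against 55.7 CPM, and for 4 of 7 early neutrophil genes, summing to 4436.5 against 2376 CPM, and its 8 macrophage genes summed to 35.7 against 413 CPM. The part of these cells in the EPX levels below was not tested. Only 3 of 7 progenitor genes passed in the SPINK2 gate and 2 of 6 in the CD34/GATA2 gate, so these gates are called by the genes that set them. The CD34/GATA2 gate summed above all other cells for erythroid (168 against 77.9 CPM) and megakaryocyte genes (165 against 100 CPM). It did so too for mast cell and basophil (112 against 37.3 CPM) and endothelial genes (45.6 against 22.8 CPM). Its macrophage, early neutrophil, eosinophil, stromal, and T and NK gene sums were lower. The part of such cells in its levels below was not tested.

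ITGB2, the subunit that all receptors of the family share, lies on chromosome 21 from 46305868 to 46351904 (GRCh37, minus strand). Its level was 243 CPM (234 to 254) in the C1Q gate, 79.5 CPM (63.3 to 98.6) in the ELANE gate and 55.4 CPM (49.8 to 61.5) in the EPX gate. In the CD34/GATA2 gate ITGB2 was at 31.7 CPM (30.1 to 33.4) and in the SPINK2 gate at 31.1 CPM (28.3 to 34.1). The order is thus C1Q, ELANE, EPX and then the CD34/GATA2 and SPINK2 gates, which did not differ from each other beyond counting error. ITGB2 was 7.67-fold higher (7.19 to 8.19) in the C1Q gate than in the CD34/GATA2 gate, 2.51-fold (1.99 to 3.13) in the ELANE gate and 1.75-fold (1.55 to 1.96) in the EPX gate. Antisense gene ITGB2-AS1 and another gene on the same strand overlap ITGB2, and whether reads were counted by strand is not given in the sources used here.

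The CD34/GATA2 level of ITGB2 was set beside that of cells that should lack it. Stromal cells, a type not known for beta2 integrins, had ITGB2 at 26.0 CPM (18.2 to 36.0), from 36 UMIs in 20 of 91 cells, 9 of them in 1 cell. The CD34/GATA2 gate was 1.22-fold (0.876 to 1.75) above this level. At least 1 ITGB2 UMI was found in 91.3% of cells in the C1Q gate (89.0 to 93.3%), 46.0% in the CD34/GATA2 gate (43.9 to 48.1%) and 22.0% in the stromal gate (14.0 to 31.9%). After each cell was thinned to 5000 UMIs, these shares were 63.2% (59.4 to 66.8%), 14.3% (12.9 to 15.9%) and 9.76% (4.31 to 18.3%). The thinned intervals of CD34/GATA2 and stromal cells overlap. Without the stromal cell of 9 UMIs, an alternative chosen after seeing the data, stroma was at 19.8 CPM (13.0 to 28.7) and the CD34/GATA2 gate 1.61-fold (1.10 to 2.45) above it, so the overlap in level rests on that cell. Over unthinned counts of all cells the C1Q gate was 9.35-fold (6.74 to 13.4) above stroma. Thinning left out 16 cells of the C1Q gate, 9 of the stromal gate and none of the CD34/GATA2 gate.

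**Figure D1:**
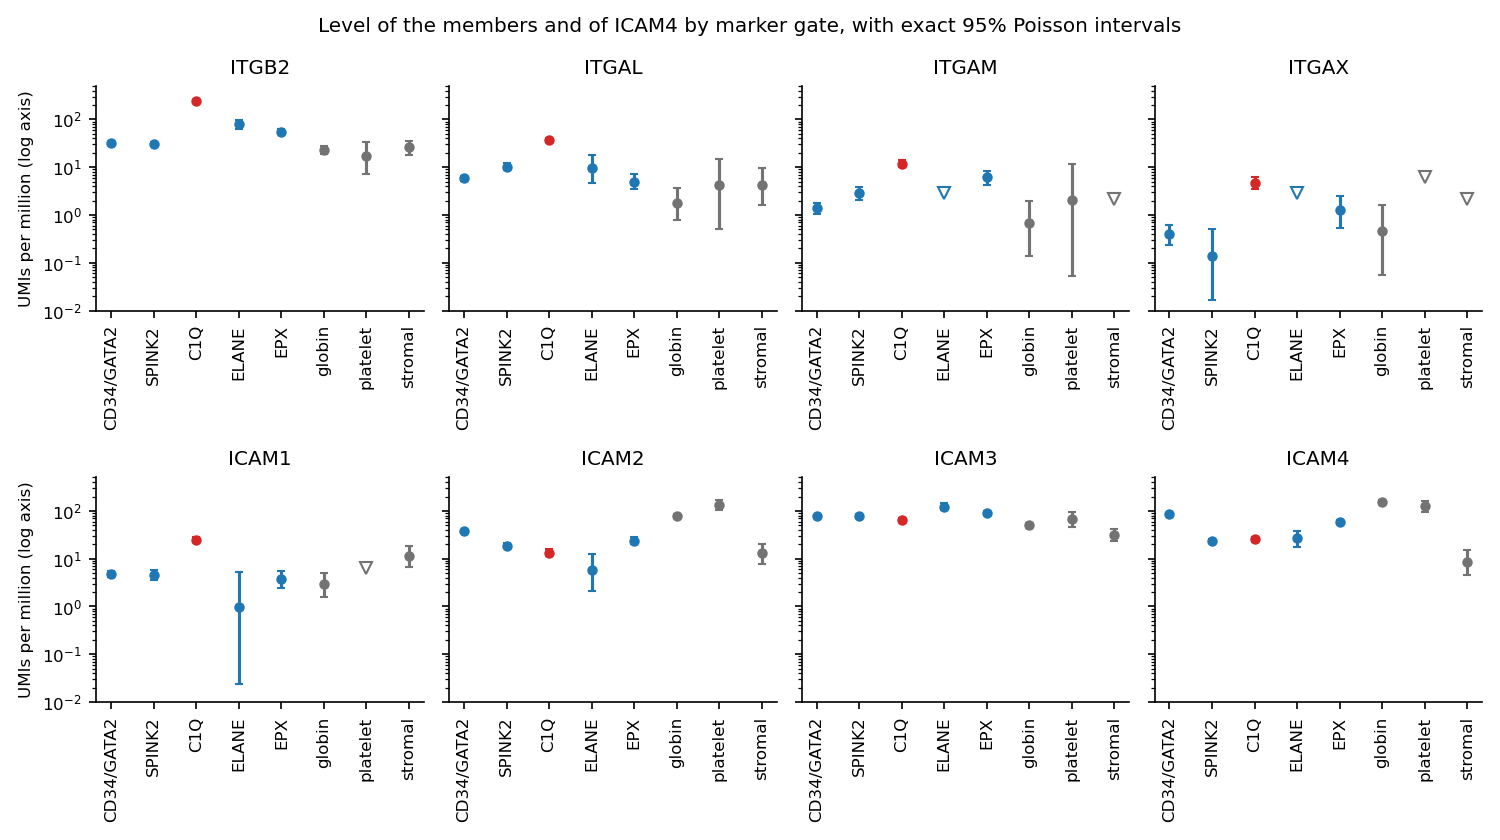
Levels of the 7 genes and of ICAM4 by marker gate, in CPM on a log axis, with points for the summed UMIs of all cells in a gate, bars for exact 95% Poisson intervals and open triangles for the limit that 0 UMIs allow (3 counts). ITGB2 peaks at 243 CPM in the C1Q gate (red) and ICAM2 at 134 CPM in the platelet gate (grey). ICAM3 lies between 31.8 CPM in the stromal gate and 123 CPM in the ELANE gate.

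The alpha subunit genes ITGAL, ITGAM and ITGAX all lie on chromosome 16, on the plus strand of GRCh37. ITGAL spans 30483979 to 30534888, and ITGAM (31271288 to 31344213) and ITGAX (31366455 to 31394320) are neighbors. All were far scarcer in UMIs than ITGB2, with 0.269 alpha subunit UMIs per ITGB2 UMI over all cells kept. This count was 0.241 in the CD34/GATA2 gate, 0.424 in the SPINK2 gate, 0.220 in the C1Q gate and 0.223 in the EPX gate.

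ITGAL, the LFA-1 chain, reached 36.96 CPM (33.2 to 41.0) in the C1Q gate. It was at 10.2 CPM (8.64 to 12.0) in the SPINK2 gate, 9.58 CPM (4.59 to 17.6) in the ELANE gate, 5.87 CPM (5.20 to 6.60) in the CD34/GATA2 gate and 5.01 CPM (3.43 to 7.07) in the EPX gate. The C1Q gate was 6.30-fold (5.37 to 7.39) and the SPINK2 gate 1.74-fold (1.42 to 2.13) above the CD34/GATA2 gate. The SPINK2 and CD34/GATA2 gates thus differed in ITGAL beyond counting error and not in ITGB2. ELANE and SPINK2 cells did not differ from each other beyond counting error, nor did EPX and CD34/GATA2 cells. Stromal cells held ITGAL at 4.34 CPM (1.59 to 9.44), 6 UMIs in all, and the CD34/GATA2 gate was 1.35-fold (0.614 to 3.72) above this. With hashtags at equal weight ITGAL in the ELANE gate was at 16.5 CPM, and after thinning ITGAL in the EPX gate was at 2.25 CPM. Genes of T and NK cells, which also carry LFA-1, moved in part with ITGAL. The 5 of them found summed to 326 CPM in the SPINK2 gate, led by CD3D (180 CPM). They summed to 261 CPM in the C1Q gate, led by NKG7 (223 CPM), and to 93.6 CPM in the CD34/GATA2 gate. The ELANE gate had 205 CPM, led by NKG7 (194 CPM), and the EPX gate 136 CPM. The EPX gate thus summed above the CD34/GATA2 gate, while its ITGAL was not higher. At least 2-fold above all other cells were 3 of the 5 in the SPINK2 gate and 1 in each of the C1Q and ELANE gates. CD3E and GNLY were at 0 in the ELANE gate. The paper counts CD3D among notch targets in its stem and multipotent progenitor cells. These sums therefore do not show that T or NK cells were present, and the part of such cells in the ITGAL levels was not tested.

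ITGAM, the Mac-1 chain, was at 11.9 CPM (9.86 to 14.3) in the C1Q gate and 6.10 CPM (4.34 to 8.34) in the EPX gate. Lower levels were found in the SPINK2 gate (2.83 CPM, 2.03 to 3.84) and the CD34/GATA2 gate (1.38 CPM, 1.07 to 1.76). ITGAM was thus 8.63-fold (6.32 to 11.9) higher in the C1Q gate and 4.41-fold (2.89 to 6.66) higher in the EPX gate than in the CD34/GATA2 gate. The ELANE gate held no ITGAM UMI in 80 cells, which allows up to 2.87 CPM, and the stromal gate none in 91 cells, which allows up to 2.17 CPM. Against these limits ITGAM in the C1Q gate was at least 4.15-fold higher than in the ELANE gate and at least 5.50-fold higher than in stroma, taking 3 counts over the gate and the C1Q level as measured. With counting error in both gates, the exact intervals of these ratios begin at 3.32 and 4.40. With a mitochondrial limit of 10%, which leaves 59 cells of the C1Q gate, ITGAM there was at 6.31 CPM.

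The promoter of ITGAM is shown because both ITGAM and SPI1, whose product PU.1 binds GAGGAA-type sites in myeloid promoters, were higher in the C1Q gate than in the CD34/GATA2 gate. The 250 bases before the ITGAM start in RefSeq (chr16:31259725-31259974, GRCh38.p14, plus strand) hold 1 GAGGAA, in capitals, that begins 127 bases before the start.
ITGAM: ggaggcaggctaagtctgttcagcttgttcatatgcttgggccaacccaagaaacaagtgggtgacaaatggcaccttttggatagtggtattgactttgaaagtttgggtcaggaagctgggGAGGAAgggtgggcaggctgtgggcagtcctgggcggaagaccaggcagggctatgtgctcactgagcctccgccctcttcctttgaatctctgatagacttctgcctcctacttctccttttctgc
GAGGAA or its reverse complement is found in 23.6% of 35116 promoter windows of this length, and in the ITGAM window neither AGATAA (9.17% of windows) nor TGTGGT (10.98%) is found. SPI1 itself was at 649 CPM in the C1Q gate and 359 CPM in the ELANE gate. It was at 254 CPM in the EPX gate and 251 CPM in the CD34/GATA2 gate. The EPX gate thus had more ITGAM than the CD34/GATA2 gate at a like SPI1 level. The ELANE gate held no ITGAM UMI, but its limit of 2.87 CPM lies above the CD34/GATA2 level of 1.38 CPM. Its ITGAM therefore cannot be ordered against that gate, and a link to SPI1 was not tested. GAGGAA or its reverse complement is also in the window of ICAM4, 46 bases before the start, and in 1 of 3 windows of ICAM3, 45 bases before it, and neither gene was higher in the C1Q gate. A match of letters is a description only, and it is not a measured binding site.

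ITGAX, the CR4 chain, was the scarcest member in UMIs. The C1Q gate held 46 of its UMIs (4.78 CPM, 3.50 to 6.37) and the EPX gate 8 (1.25 CPM, 0.541 to 2.47). The CD34/GATA2 gate held 19 (0.398 CPM, 0.240 to 0.622), the SPINK2 gate 2, and the ELANE and stromal gates 0. ITGAX in the C1Q gate was 12.0-fold (6.89 to 21.7) above the CD34/GATA2 gate, with an interval that overlaps those of ITGB2 and ITGAM. With a mitochondrial limit of 10% the log2 ratio was 0.59 in place of 3.58. At least 1 ITGAX UMI was found in 5.20% of cells in the C1Q gate (3.67 to 7.13%), in 2.37% (1.36 to 3.82%) after thinning, and in none of 91 stromal cells, which allows up to 3.297%.

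Use of the alpha subunits is the share of each gene in the UMIs of all 3. ITGAL made up 76.7% (72.0 to 81.0%) of 365 alpha UMIs in the CD34/GATA2 gate, 77.5% (70.9 to 83.2%) of 191 in the SPINK2 gate and 68.9% (64.7 to 72.8%) of 517 in the C1Q gate. The C1Q gate had the highest level of each alpha gene. Its ITGAL share lay below the intervals of the SPINK2 and CD34/GATA2 gates, although the intervals themselves overlap at their ends. Such an overlap does not show equal use. ITGAX made up 8.90% (6.59 to 11.7%) of alpha UMIs in the C1Q gate, 5.21% (3.16 to 8.01%) in the CD34/GATA2 gate and 1.05% (0.127 to 3.73%) in the SPINK2 gate. For ITGAX the intervals of the C1Q and SPINK2 gates do not overlap. Those of the C1Q and CD34/GATA2 gates do, although the C1Q share lies above the CD34/GATA2 interval.

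In the EPX gate the intervals of the ITGAM and ITGAL shares overlapped. ITGAM made up 49.4% (37.9 to 60.9%) of its 79 alpha UMIs, ITGAL 40.5% (29.6 to 52.1%) and ITGAX 10.1% (4.47 to 19.0%). The ITGAM share lay above the intervals of the CD34/GATA2 gate, at 18.1% (14.3 to 22.4%), of the C1Q gate, at 22.2% (18.7 to 26.1%), and of the SPINK2 gate. Globin, platelet and stromal cells held only 13, 3 and 6 alpha UMIs. In the EPX gate ITGAM was 51.9% of 27 alpha UMIs for hashtag 0252, 60.9% of 23 for 0253, 33.3% of 15 for 0254 and 42.9% of 14 for 0255. Each was above the pooled shares of the CD34/GATA2, SPINK2 and C1Q gates, but for 0254 and 0255 the intervals (11.8 to 61.6% and 17.7 to 71.1%) reach down to them. ITGAL held the larger share for hashtags 0254 (60% of alpha UMIs) and 0255 (57.1%). After thinning to 5000 UMIs, the ITGAL share of the EPX gate was 19.0%. The 39 ITGAM UMIs of the EPX gate came from 28 cells, 5 of them from 1 cell, and its 32 ITGAL UMIs from 31 cells. Without that cell, an alternative chosen after seeing the data, the ITGAM share was 45.9% and its level 5.33 CPM, 3.85-fold (2.47 to 5.91) above the CD34/GATA2 gate. In the ELANE gate all 10 alpha UMIs were ITGAL, which bounds the ITGAM share at 30.8%.

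**Figure D2:**
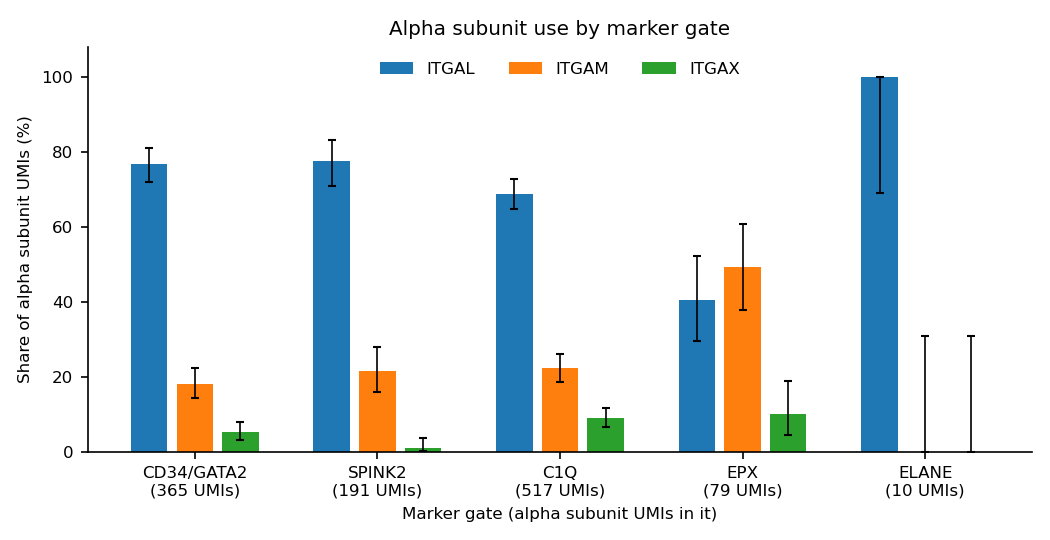
Share of ITGAL, ITGAM and ITGAX in the alpha subunit UMIs of each marker gate, in percent, with bars for the share and lines for the exact 95% Clopper-Pearson interval. ITGAL is the largest share in every gate shown but EPX, where ITGAM stands at 49.4%, and the ELANE gate rests on 10 UMIs.

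Since the ELANE gate is small, ungated cells with at least 20 MPO UMIs per 10000 (721 cells) were also examined, a set chosen after values were seen. MPO is a neutrophil granule enzyme. In these cells ITGB2 was at 81.8 CPM (77.0 to 86.8), close to the ELANE gate, and ITGAL made up 77.2% and ITGAM 21.8% (17.1 to 27.0%) of 285 alpha UMIs. ITGAM was detected there at 4.62 CPM (3.54 to 5.92), 3.34-fold (2.32 to 4.80) above the CD34/GATA2 gate. Another set, of 470 ungated cells with at least 5 HLA-DRA UMIs per 10000 and outside the MPO set, held ITGB2 at 122 CPM (115 to 131) and ITGAL at 21.7 CPM (18.5 to 25.3). The C1Q gate was 1.99-fold (1.84 to 2.15) higher in ITGB2 than this set of HLA class II cells.

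Few cells showed more than 1 alpha gene. In the C1Q gate 370 of 692 cells had no alpha UMI, 265 had UMIs of 1 alpha gene, 54 of 2 and 3 of all 3. ITGAL was found in 37.3% of C1Q cells with an ITGB2 UMI and in 35.0% of those without, where median depth was 12960.5 and 11417.5 UMIs. In the CD34/GATA2 gate these shares of ITGAL were 12.2% and 10.1%, at 21870 and 19159 UMIs. At this depth a cell with no alpha UMI cannot be read as a cell without the gene.

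ICAM1, a ligand of LFA-1 and Mac-1 that inflammatory signals induce in many cells, lies on chromosome 19 from 10381769 to 10397291 (GRCh37, plus strand). Its level was 25.0 CPM (22.0 to 28.4) in the C1Q gate. It was at 4.82 CPM (4.22 to 5.48) in the CD34/GATA2 gate, 4.63 CPM (3.59 to 5.88) in the SPINK2 gate and 3.76 CPM (2.41 to 5.59) in the EPX gate, levels that did not differ beyond counting error. The ELANE gate held 1 ICAM1 UMI in 80 cells. ICAM1 was 5.19-fold (4.32 to 6.25) higher in the C1Q gate than in the CD34/GATA2 gate, and with a mitochondrial limit of 10% these gates had 48.9 and 7.85 CPM. Stromal cells held 11.6 CPM (6.61 to 18.8), 2.40-fold (1.35 to 3.98) above the CD34/GATA2 gate, and the HLA-DRA set 18.2 CPM (15.3 to 21.5).

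The ICAM1 promoter is shown because genes of the NF-kB pathway, a known inducer of ICAM1, were higher in the same gate. Its 250 bases before the start (chr19:10270870-10271119, GRCh38.p14, plus strand, RefSeq) hold GGAAATTCC, an NF-kB type motif, in capitals, that begins 186 bases before the start.
ICAM1: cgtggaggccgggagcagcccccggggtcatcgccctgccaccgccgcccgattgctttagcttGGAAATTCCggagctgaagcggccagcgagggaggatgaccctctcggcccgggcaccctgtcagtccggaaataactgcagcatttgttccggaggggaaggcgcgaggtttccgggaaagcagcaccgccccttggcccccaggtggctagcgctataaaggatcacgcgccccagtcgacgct
This motif or its reverse complement is found in 0.413% of the 35116 windows. In the list of NF-kB and interferon genes chosen for ICAM1, 5 of 8 compared were at least 2-fold higher in the C1Q gate than in the CD34/GATA2 gate and none lower, where 12.0% of all genes compared were higher and 9.86% lower. TNFAIP3, RELB and NFKB2 were compared only through their C1Q level. IFNGR1, a chain of the interferon gamma receptor, went from 18.2 to 162 CPM and RELB, an NF-kB subunit, from 6.45 to 24.9 CPM. TNFAIP3, an inhibitor of the pathway, went from 2.72 to 15.2 CPM and NFKB2 from 5.11 to 16.0 CPM. A link between these genes and ICAM1 was not tested, and the motif is a match of letters, not a measured binding site.

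ICAM2, an LFA-1 ligand known from endothelium and platelets, lies on chromosome 17 from 62079954 to 62097994 (GRCh37, minus strand). Of the 5 main gates its level was highest in the CD34/GATA2 gate, whereas each of the 4 integrin genes was highest in the C1Q gate. ICAM2 was at 38.9 CPM (37.1 to 40.7) in the CD34/GATA2 gate, 23.9 CPM (20.3 to 28.1) in the EPX gate and 18.7 CPM (16.5 to 21.0) in the SPINK2 gate. It was at 13.4 CPM (11.2 to 15.9) in the C1Q gate and 5.75 CPM (2.11 to 12.5) in the ELANE gate, against 13.0 CPM (7.71 to 20.6) in stroma. With a mitochondrial limit of 10%, ICAM2 in the EPX gate was at 10.5 CPM. The C1Q gate held 0.345-fold (0.286 to 0.412) and the SPINK2 gate 0.480-fold (0.421 to 0.546) the CD34/GATA2 level. Globin cells reached 78.0 CPM (70.0 to 86.7) and the 23 platelet chemokine cells 134 CPM (103 to 171), 2.01-fold (1.78 to 2.25) and 3.45-fold (2.64 to 4.42) the CD34/GATA2 level. The 6 endothelial genes of the marker list moved in part with ICAM2, summing to 45.6 CPM in the CD34/GATA2 gate, 29.1 CPM in SPINK2, 6.13 CPM in C1Q, 86.0 CPM in globin and 144 CPM in platelet cells. ESAM, a gene known from endothelium and platelets alike, led in each of these gates, and 3 of the 6 were at 0 in the platelet gate. The EPX gate (6.42 CPM) and stroma (55.0 CPM, led by EMCN) did not follow ICAM2, and the part of endothelial RNA in the ICAM2 levels was not tested.

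ICAM3, a ligand that resting leukocytes carry, lies on chromosome 19 from 10444452 to 10450337 (GRCh37, minus strand). It had the most even level of the 7 genes. ICAM3 was at 123 CPM (102 to 146) in the ELANE gate, 91.9 CPM (84.6 to 99.6) in the EPX gate, 80.0 CPM (75.5 to 84.8) in the SPINK2 gate, 79.6 CPM (77.1 to 82.2) in the CD34/GATA2 gate and 64.3 CPM (59.3 to 69.5) in the C1Q gate. The SPINK2 gate was 1.25-fold (1.13 to 1.37) above the C1Q gate, and the SPINK2 and CD34/GATA2 gates did not differ beyond counting error. All 5 gates lay above stroma (31.8 CPM, 23.1 to 42.7) and globin cells (49.6 CPM, 43.2 to 56.6). At least 1 ICAM3 UMI was found in 77.0% of CD34/GATA2 cells, 51.2% of C1Q cells and 37.4% of stromal cells, and after thinning in 33.2%, 24.7% and 14.6%.

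Against the CD34/GATA2 gate, genes were called higher or lower at a ratio of at least 2, over genes with at least 10 CPM in either gate. In the C1Q gate 4 of the 6 members compared were higher (ITGB2, ITGAL, ITGAM and ICAM1) and 1 lower (ICAM2), against 12.0% and 9.86% of all genes compared. Of these, ITGAL, ITGAM and ICAM1 were compared only because the C1Q gate itself had at least 10 CPM, which favors a higher call, so their count is not read against that background, and ITGAX was under 10 CPM in both gates. In the SPINK2 gate none of 4 was higher and 1 (ICAM2) lower, against 1.91% and 2.96% of all genes. In the ELANE gate 1 of 3 was higher (ITGB2) and 1 lower (ICAM2), against 12.0% and 8.67% of all genes. In the EPX gate none of 3 was called in either direction, against 3.07% higher and 2.69% lower of all genes.

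ICAM4, an erythroid ligand of LFA-1 and Mac-1 that lies next to ICAM1, was, like ICAM2, higher in globin and CD34/GATA2 cells than in the C1Q gate. It was at 155 CPM (144 to 167) in globin cells, 87.8 CPM (85.2 to 90.5) in the CD34/GATA2 gate, 59.5 CPM in the EPX gate and 25.5 CPM (22.4 to 28.9) in the C1Q gate. ITGAD, the remaining beta2 partner, was nearly absent, with 0.311 CPM in the C1Q gate. Of the rest of the family, none of 3 compared was called higher in the C1Q gate and 2 were called lower, against 12.0% and 9.86% of all genes. These were ICAM4 and JAM3, the latter a junction protein that binds Mac-1 (11.4 to 3.43 CPM).

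Genes that switch integrins from bent to extended form went in both directions. Of 11 compared, 6 were called higher and 1 lower in the C1Q gate than in the CD34/GATA2 gate, against 12.0% and 9.86% of all genes, and 1 of the 6 was compared only through its C1Q level. The scaffold APBB1IP (RIAM), which links RAP1 to talin, went from 43.6 to 127 CPM, the adaptor FYB from 127 to 318 CPM, the small GTPase RAP1A from 46.0 to 105 CPM and the RAP1 effector RASSF5 (RAPL) from 12.3 to 27.6 CPM. The adaptor SKAP2 and the ITGB2-binding CYTH1 were also called higher. RASGRP2, which activates RAP1, fell from 98.5 to 30.2 CPM in the C1Q gate but stood at 235 CPM in the ELANE gate. FERMT3 (kindlin-3), which binds the beta2 tail directly, was at 170 CPM in the CD34/GATA2 gate, 90.7 CPM in the C1Q gate, 83.4 CPM in the ELANE gate and 63.4 CPM in the SPINK2 gate. Talin (TLN1) ranged only from 169 to 258 CPM over the 5 gates.

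Downstream of the receptors, 4 of 11 signalling genes were called higher in the C1Q gate and none lower, against 12.0% and 9.86% of all genes, with FGR compared only through its C1Q level. The adaptor TYROBP (DAP12) went from 230 to 1058 CPM, the kinase SYK from 36.0 to 106 CPM and the kinase FGR from 3.04 to 11.9 CPM. In the ELANE gate SYK (120 CPM), FGR (27.8 CPM), PLCG2 (56.5 CPM) and PTK2B (87.2 CPM) were called higher and LCP2 lower, against 12.0% and 8.67% of all genes. There FGR was compared only through its ELANE level. Ezrin, radixin and moesin, which tie ICAM tails to actin, were not called in any of the 4 comparisons. Among complement genes, 3 of 4 were called higher in the C1Q gate, where 12.0% of all genes were, but each of the 3 was compared only through its C1Q level. In the C1Q gate against the CD34/GATA2 gate C3, the precursor of the Mac-1 ligand iC3b, was at 194 against 6.03 CPM, C3AR1 at 26.7 against 3.33 CPM and VSIG4 at 23.1 against 0.775 CPM. Of 8 transcription factors tied to beta2 promoters, 4 were called higher in the C1Q gate (SPI1, CEBPA, RUNX3 and IRF8) and 1 lower, against 12.0% and 9.86% of all genes, with 1 of the 4 compared only through its C1Q level. MYB fell from 59.2 to 7.68 CPM. RUNX3 was also called higher in the SPINK2 gate (174 against 60.3 CPM) and lower in the ELANE gate (19.2 CPM). ITGAL was at 10.2 CPM in the SPINK2 gate and 5.87 CPM in the CD34/GATA2 gate. In the ELANE gate it was at 9.58 CPM, with an interval (4.59 to 17.6) that holds both levels. A link between RUNX3 and ITGAL was not tested.

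Within the C1Q gate the 7 genes were compared across terciles of cells ordered by C1Q UMIs per 10000, with median depths of 14632, 13066 and 11114 UMIs. ITGB2 was at 199 CPM (185 to 214) in the lowest, 230 CPM (214 to 248) in the middle and 315 CPM (295 to 337) in the highest tercile. ICAM1 went from 19.98 CPM (15.6 to 25.2) through 22.1 CPM to 34.8 CPM (28.2 to 42.4), also with separate intervals at the ends. ITGAL, at 33.6, 35.5 and 42.9 CPM, had overlapping intervals, as had ITGAM at 11.9, 14.3 and 9.23 CPM. ICAM3 stayed at 67.2, 63.5 and 61.4 CPM. After thinning, cells with an ITGB2 UMI made up 51.1%, 62.6% and 75.8% of the terciles, so the order of ITGB2 was the same at equal depth. For ICAM1 the thinned shares were 8.37% (5.11 to 12.8%), 7.21% and 10.1% (6.53 to 14.8%). Their intervals overlap, so the rise of ICAM1 was not seen in the share of cells at equal depth.

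**Figure D3:**
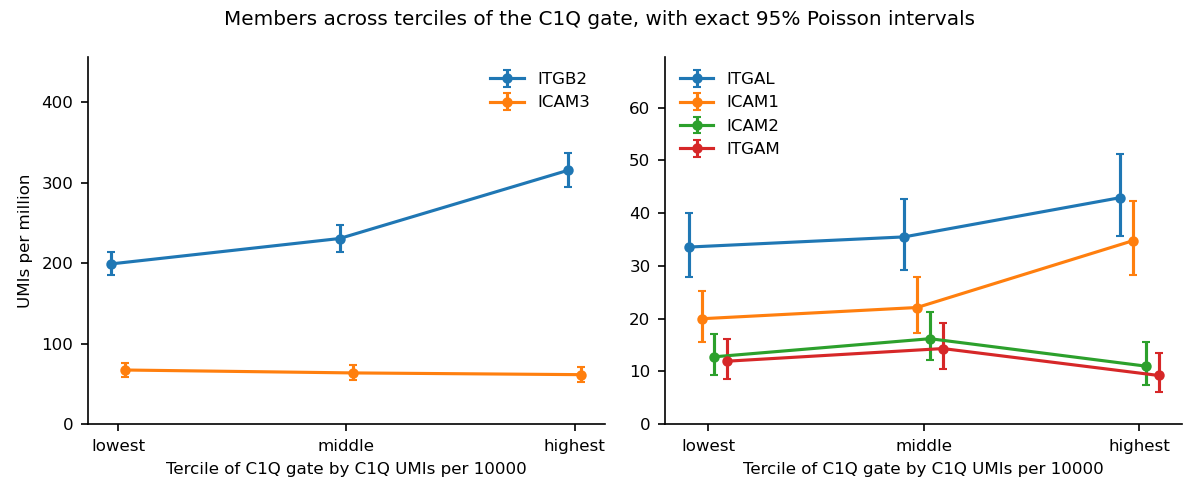
Levels of 6 of the genes in terciles of the C1Q gate ordered by C1Q UMIs per 10000, in CPM on linear axes from 0, with exact 95% Poisson intervals. ITGB2 runs from 199 to 315 CPM and ICAM1 from 19.98 to 34.8 CPM, while ICAM3, ICAM2 and ITGAM have overlapping intervals.

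Between hashtags over all cells, ITGB2 was at 53.3 CPM for 0252, 84.4 CPM for 0253, 56.3 CPM for 0254 and 57.4 CPM for 0255. Hashtag 0253 stood apart, 1.58-fold (1.498 to 1.671) above 0252. Called at a ratio of 1.5 between the highest and lowest hashtag, 2 of 4 members with at least 10 CPM passed (ITGB2 and ITGAL, the latter 15.4 CPM for 0253 and 10.00 CPM for 0254), against 5.45% of all genes. ICAM3 differed by 1.12-fold (1.06 to 1.18). The hashtags differ in their share of cells per gate, so levels were also compared within gates. C1Q cells made up 8.67% of 0253 and 10.3% of 0252, and the HLA-DRA set 4.76% and 5.76%. The MPO set made up 15.7% of 0253, 13.5% of 0252, 3.79% of 0254 and 3.18% of 0255. SPINK2 cells, low in ITGB2, made up 5.11% of 0253, 9.18% of 0252, 11.5% of 0254 and 13.9% of 0255. The part of these shares in the levels over all cells was not tested.

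In the C1Q gate ITGB2 was at 209 CPM (192 to 226) for 0252, 303 CPM (282 to 325) for 0253, 212 CPM (195 to 231) for 0254 and 257 CPM (234 to 283) for 0255. Hashtag 0253 was again highest, and the intervals of 0253 and 0255, which just overlap each other, lie above those of 0252 and 0254. ICAM1 in the C1Q gate also had 0253 and then 0255 highest, at 19.3 CPM (14.5 to 25.1), 34.6 CPM (27.8 to 42.6), 17.9 CPM (13.1 to 24.0) and 30.6 CPM (22.8 to 40.1). ITGAM had 41, 39, 25 and 10 UMIs there and was lowest for 0255, at 5.88 CPM (2.82 to 10.8), where ITGAL reached 79.3% (69.3 to 87.3%) of alpha UMIs. Of the 6 members with at least 10 CPM in the C1Q gate, 4 passed 1.5-fold between hashtags (ITGAL 1.54, ITGAM 2.58, ICAM1 1.93 and ICAM2 1.81) and ITGB2 (1.45) did not, but so did 30.7% of all genes, which at this depth is a high background. In the HLA-DRA set hashtag 0253 also had the highest ITGB2, at 176 CPM (155 to 198), against 102 CPM (87.7 to 118) for 0252, 121 CPM for 0254 and 103 CPM for 0255. There ITGAM was at 10.5, 18.6, 3.63 and 2.75 CPM and ITGAL at 30.5, 30.2, 15.0 and 14.2 CPM. Both alpha genes were thus higher for 0252 and 0253 than for 0254 and 0255. For ITGAL the intervals of 0252 and 0253 lay above those of 0254 and 0255. For ITGAM, from 19, 29, 7 and 6 UMIs, the intervals of 0252 (6.33 to 16.4) and 0254 (1.46 to 7.48) overlap.

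Among CD34/GATA2 cells ICAM2 and ICAM3 differed between hashtags in opposite directions. ICAM2 was at 43.5 CPM (40.2 to 47.1) for 0252, 43.6 CPM (40.1 to 47.4) for 0253, 35.2 CPM (32.0 to 38.6) for 0254 and 28.8 CPM (25.2 to 32.7) for 0255. The intervals for 0252 and 0253 lay above those of the other two hashtags. ICAM3 ran the other way, at 70.1 CPM (65.9 to 74.6), 75.1 CPM (70.4 to 80.0), 91.4 CPM (86.2 to 96.9) and 85.2 CPM (79.0 to 91.8). In globin cells ICAM2 was likewise lowest for 0255 (56.3 CPM) and highest for 0253 (90.5 CPM). At far lower levels in the CD34/GATA2 gate, the highest hashtag was 1.89-fold (1.25 to 2.88) the lowest for ICAM1 and 2.05-fold (1.02 to 4.32) for ITGAM. ITGB2 in the CD34/GATA2 gate spanned 28.5 to 34.9 CPM, with 0253 1.23-fold (1.07 to 1.41) above 0252. In the SPINK2 gate it spanned 28.0 to 33.7 CPM, with 0253 1.20-fold (0.881 to 1.63) above 0254.

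**Figure D4:**
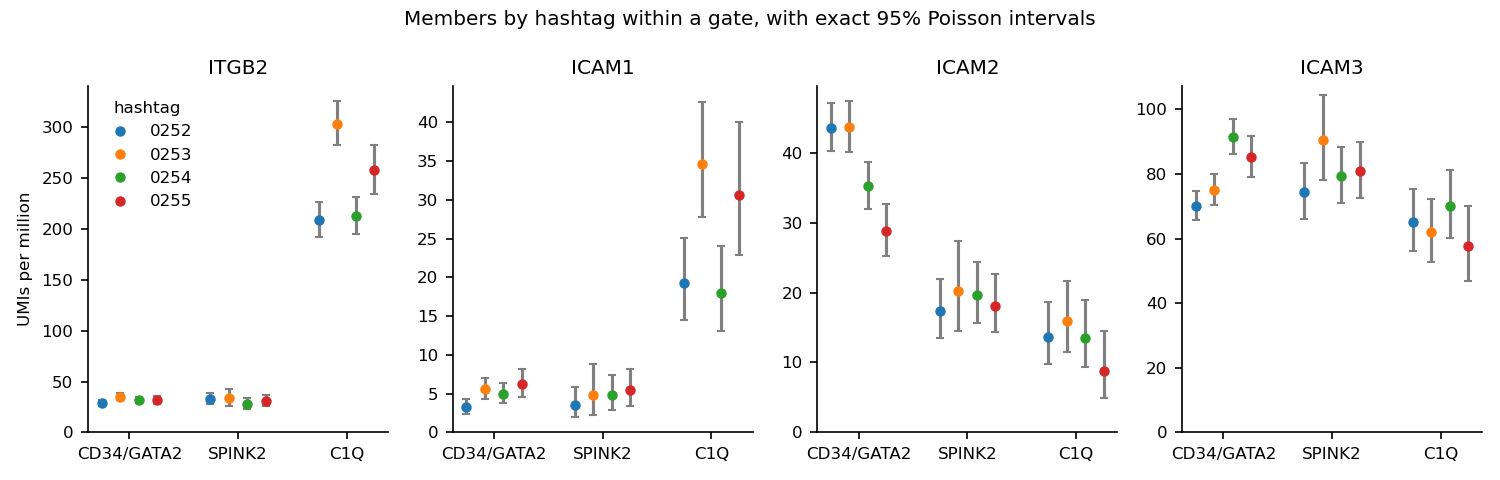
Levels of ITGB2, ICAM1, ICAM2 and ICAM3 by hashtag within the CD34/GATA2, SPINK2 and C1Q gates, in CPM on linear axes from 0, with exact 95% Poisson intervals. For ITGB2 in the C1Q gate 0253 stands at 303 CPM, and for ICAM2 in the CD34/GATA2 gate 0255 is lowest at 28.8 CPM.

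Over 23 sets of cells, each a gate of 1 hashtag with at least 20 cells, the genes most like each member were sought among 10372 genes by Pearson's r of log2(CPM + 1). The sets share 1 library, so r is a description. Most like ITGB2 were RNASET2 (0.95), CTSC (0.94), which encodes a lysosomal protease, and PILRA (0.94). ICAM1 was most like HMOX1 (0.93), EPSTI1 (0.93) and HLA-DMA (0.93), and ICAM2 most like TBPL1 (0.97), CMAS (0.96) and GFI1B (0.94). ITGAL was closest to PSENEN (0.94), ITGAM to GPR183 (0.86), ITGAX to LST1 (0.87) and ICAM3 to TBC1D10C (0.93). Among the members themselves, ITGB2 ran with ITGAX (0.81) and ITGAL (0.78) and against ICAM2 (-0.66), with ICAM3 at 0.16. For ICAM2, r was -0.27 with ITGAM and -0.22 with ITGAX.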

How the data were processed

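Nonadherent cells of the 4 coating conditions were captured in 1 library with the 10x Chromium 3′ v3.1 kit. Per the labels, Cell Ranger 6.0.1 and hg19 were used, and the authors deposited UMI counts per gene, without normalization, for barcodes selected as cells, and a hashtag call for each. Barcodes with 1 hashtag call and at most 36000 UMIs, 6000 genes and 18% mitochondrial UMIs were kept. Hashtag doublets were thereby left out, and Scrublet was used only as an alternative. Gates were set by UMIs per 10000 of marker genes, and CPM was computed from summed counts. Intervals are exact (Poisson for CPM, Clopper-Pearson for shares, conditional for ratios), at the 95% level, and cover counting error only. A level of 0 is given the limit of 3 counts, and shares were also taken after thinning each cell to 5000 UMIs. With 1 library, cells are not replicates and nothing was tested.

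The 7 genes, gates and gene lists were chosen with earlier results of these data known, and the MPO and HLA-DRA sets and the motifs after values were seen. The text names the 7 genes, genes of the lists called at a ratio of 2 or otherwise with at least 10 CPM, and the 3 genes most like a member. Marker genes TRBC2 and TPSB2 were not found by symbol. Values of 2 list genes are not reported here. Steps were tested on simulated data. Gene positions are from GENCODE for GRCh37, and promoters from RefSeq (GRCh38.p14), where 3 of the 7 genes matched by symbol. Intervals were computed with scipy 1.17.1 (numpy 2.4.6), tables with pandas 2.3.3, Scrublet through scanpy 1.11.5 and figures with matplotlib 3.10.9, in Python 3.11.15.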

Additional observations from a re-analysis of the deposited data

Results flagged for a closer look

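Barcodes outside the comparisons, because they were called negative or as hashtag doublets, also held the 7 genes above the limit that 0 counts allow. In 809 negative barcodes within the limits on depth and mitochondrial UMIs, ITGB2 was at 34.1 CPM, ITGAL at 6.74 CPM, ITGAM at 2.19 CPM, ITGAX at 0.392 CPM, ICAM1 at 4.94 CPM, ICAM2 at 30.8 CPM and ICAM3 at 90.6 CPM. In 834 called doublets, ITGB2 was at 64.2 CPM, ITGAL at 12.6 CPM, ITGAM at 3.25 CPM, ITGAX at 0.542 CPM, ICAM1 at 7.53 CPM, ICAM2 at 30.3 CPM and ICAM3 at 73.7 CPM. Called doublets thus lie near the cells kept (ITGB2 63.3 CPM, ICAM3 74.5 CPM), and negative barcodes hold less ITGB2 and more ICAM3. ITGAL made up 72.3% of 119 alpha UMIs in negative barcodes and 76.9% of 303 in called doublets.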

How the results depend on the processing

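No paired analysis was possible because the series has 1 library, in which hashtags mark conditions and not replicates. The 9 other settings gave 121 values for the 14 member ratios of at least 2-fold against the CD34/GATA2 gate. All 121 kept their direction and 111 stayed at least 2-fold. Settings in which a gate had no UMI of the gene gave no ratio and are not among the 121. The counting intervals of ITGAX in the SPINK2 gate (0.347-fold, 0.0392 to 1.44) and ICAM1 in the ELANE gate (0.199-fold, 0.00501 to 1.12) hold both directions. The ITGB2 ratio of the C1Q to the CD34/GATA2 gate was 8.32 with gate limits doubled, 7.15 with them halved and 7.11 with no limits on cells, against 7.67. A mitochondrial limit of 10% leaves 83 CD34/GATA2 and 59 C1Q cells. With it the ITGAL share in the CD34/GATA2 gate was 66.7%, the ITGAX share in the C1Q gate 3.45% and the ICAM3 ratio of SPINK2 to C1Q cells 1.12. Of 68 other values, 34 lay outside the counting interval of the full gates. That interval does not cover the larger counting error of these smaller sets, so the count does not measure dependence on the limit. The cause of the shifts was not tested. The ITGAM share of the ELANE gate was 0 in all 9. Since this gate holds no ITGAM UMI, settings that only remove, thin or reweight its cells could give no other value. The 0 in those settings therefore says nothing about dependence on the processing. Low counts limit ITGAX, with 46 UMIs in the C1Q gate, and the ELANE gate, with 80 cells and 10 alpha UMIs.

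Counts of genes past the fold depend on the floor. With any gene of 3 UMIs compared, 1272 and 2318 genes were higher and lower in the SPINK2 gate, 2853 and 3693 in C1Q, 2342 and 6164 in ELANE and 1305 and 3204 in EPX. With a floor of 50 CPM these were 34 and 64, 359 and 282, 335 and 195, and 81 and 49. With a floor of 10 CPM they were 152 and 236, 1022 and 841, 1027 and 740, and 249 and 218. Between hashtags 427 genes passed at 10 CPM and 102 at 50 CPM over all cells, and 2376 and 295 in the C1Q gate, since more or fewer low genes are compared.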

Other observations

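JAM-A (F11R), another LFA-1 ligand, was at 33.5 CPM in the ELANE gate, 35.6 CPM in platelet cells and 14.5 CPM in the CD34/GATA2 gate, while JAM3 was at 3.83 CPM in the ELANE gate. Properdin (CFP), a plasma protein of the complement pathway, was at 27.3 CPM in the C1Q gate and 20.9 CPM in the CD34/GATA2 gate, but at 3.83 CPM in the ELANE gate and 4.85 CPM in the EPX gate. ICAM5 stayed at or under 4.23 CPM in the 5 gates.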
